A study of Oryza sativa with 12 samples.

Results

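RA14 (LOC4342723), RA17 (LOC4342722) and LTP-2 (LOC4331362) are 3 of 17905 genes on the rice array. They were measured by 7 of its 57258 probe sets outside the AFFX controls: 4 for RA14, 2 for RA17 and 1 for LTP-2. The 57258 include the 64 reporter probe sets used below for the background level. The probe sets were found through the array annotation and the synonyms in the gene table. The genes were chosen because their values differed between the 4 groups of these same arrays, so the levels below describe them and no test is given for them. Panicles of 2 rice cultivars were profiled on 12 arrays, in 4 groups of 3: IR64 control, IR64 heat, N22 (Nagina22) control and N22 heat. The labels describe IR64 as susceptible to heat and N22 as tolerant. Heated plants stood for 8 days, nights included, in a facility held 5 °C above ambient once they reached booting, while the controls stood outdoors beside it. Growing site thus changed along with temperature. Flowering was brought together by staggered sowing, and panicles came from main tillers. Nothing in the labels says that the 3 arrays of a group came from separate plants, so p-values measure only the spread between these arrays, which may be technical.

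RA14 and RA17 encode seed allergens of the alpha-amylase/trypsin inhibitor family, small cysteine-rich proteins that cereals lay down in the developing grain. LTP-2 encodes a nonspecific lipid transfer protein, a small secreted protein that holds lipids in a cavity braced by disulphide bonds, and lipid transfer proteins are known from seed coats, aleurone, epidermis and anthers. All of these proteins belong to the wider prolamin superfamily, named after the storage proteins of cereal endosperm. RA17 and RA14 are next to each other on chromosome 7 in the assembly ASM3414082v1, and LTP-2 is on chromosome 3. No coordinates are given, because no source used here names the build behind the array annotation.

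Values are log2 expression levels as deposited. A level of 4.20, the highest value among 64 reporter probe sets that match no rice gene, is used as background, and a gene at or under it was not measured above background. The deposited values run from 2.29 to 15.8, and between 33.2% and 34.5% of the probe sets on an array lie above background. A level is compared between groups for the same probe set only, since probe sets differ in brightness.

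The seed allergen RA14 was bright in N22 and at background in IR64. On its brightest probe set (shared) the N22 control arrays read 15.18, 15.10 and 15.06, and the N22 heat arrays read 14.79, 14.88 and 14.78. The IR64 control arrays read 2.87, 2.30 and 2.30, and the IR64 heat arrays 2.30, 2.33 and 2.30. Every N22 array thus lay far above every IR64 array, and the heated N22 arrays lay just under the N22 controls without overlap. In control the N22 mean was at least 1922-fold above IR64, and in heat at least 1565-fold, where "at least" means that the dim group was raised to background. The N22 heat mean was 0.30 lower than control on the log2 scale (-0.30 ± 0.13, SE of the fit, 3 arrays per group). Every SE from this fit pools the spread of all 4 groups, IR64 arrays at background included. Within N22 the SD here was 0.06 in control and 0.06 in heat, against 0.33 in IR64 control. The size of the heat difference depends on scaling: it was -0.49 with each array centred on its median and -0.23 after quantile normalization.

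On the other RA14 probe sets, too, N22 was above IR64, and the heat difference in N22 was larger. On the second brightest the N22 control arrays read 14.33, 14.32 and 14.17 and the heat arrays 13.46, 13.67 and 13.48, a difference of -0.74 ± 0.08. On the next they read 14.01, 13.98 and 13.84 in control and 12.89, 13.08 and 12.95 in heat, a difference of -0.97 ± 0.12. Neither pair of groups overlapped, and all IR64 arrays were at background on both. These 3 probe sets can match several transcripts, so closely related allergen genes may add to them. The remaining one was dim, at 5.09, 5.27 and 5.75 in N22 control and 5.10, 4.98 and 4.28 in N22 heat. Its N22 groups overlapped (-0.58 ± 0.21, with SDs of 0.34 in control and 0.44 in heat), while its IR64 arrays stayed at or under 2.49. The 4 probe sets of RA14 thus share a direction for heat in N22 but not a size, which runs from -0.30 on the brightest to -0.97.

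RA17 had the largest heat difference of the 3 genes. Its bright probe set read 13.02, 12.97 and 12.80 on the N22 control arrays and 10.30, 10.77 and 10.58 on the N22 heat arrays. The lowest control array stood 2.03 above the highest heat array, and the means differed by 5.20-fold (12.93 ± 0.12 in control and 10.55 ± 0.24 in heat, SD, n = 3). In IR64 it read 2.60, 2.29 and 2.29 in control and 2.29 on each of the 3 heat arrays. N22 was thus at least 424-fold above IR64 in control and at least 81.4-fold above it in heat. A second RA17 probe set did not show this: it was at background on all 12 arrays, at 2.66 to 3.35 in N22 control and 2.60 to 3.20 in N22 heat. RA17 therefore rests on a single probe set here.

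LTP-2, the lipid transfer gene, was bright in N22 with and without heat. Its probe set read 13.52, 13.50 and 13.57 in N22 control and 13.47, 13.61 and 13.47 in N22 heat. The groups overlapped and their means, 13.53 ± 0.03 and 13.51 ± 0.08 (SD, n = 3), differed by -0.02 ± 0.19 (SE), or by -0.21 with each array centred on its median. In IR64 control it read 3.40, 3.54 and 2.73, all at background. In IR64 heat it read 3.79, 3.76 and 4.24, of which 2 arrays were at background and 1 just above it. N22 was at least 642-fold above IR64 in control. In heat the ratio was 629-fold with those 2 arrays raised to background.

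**Figure D1:**
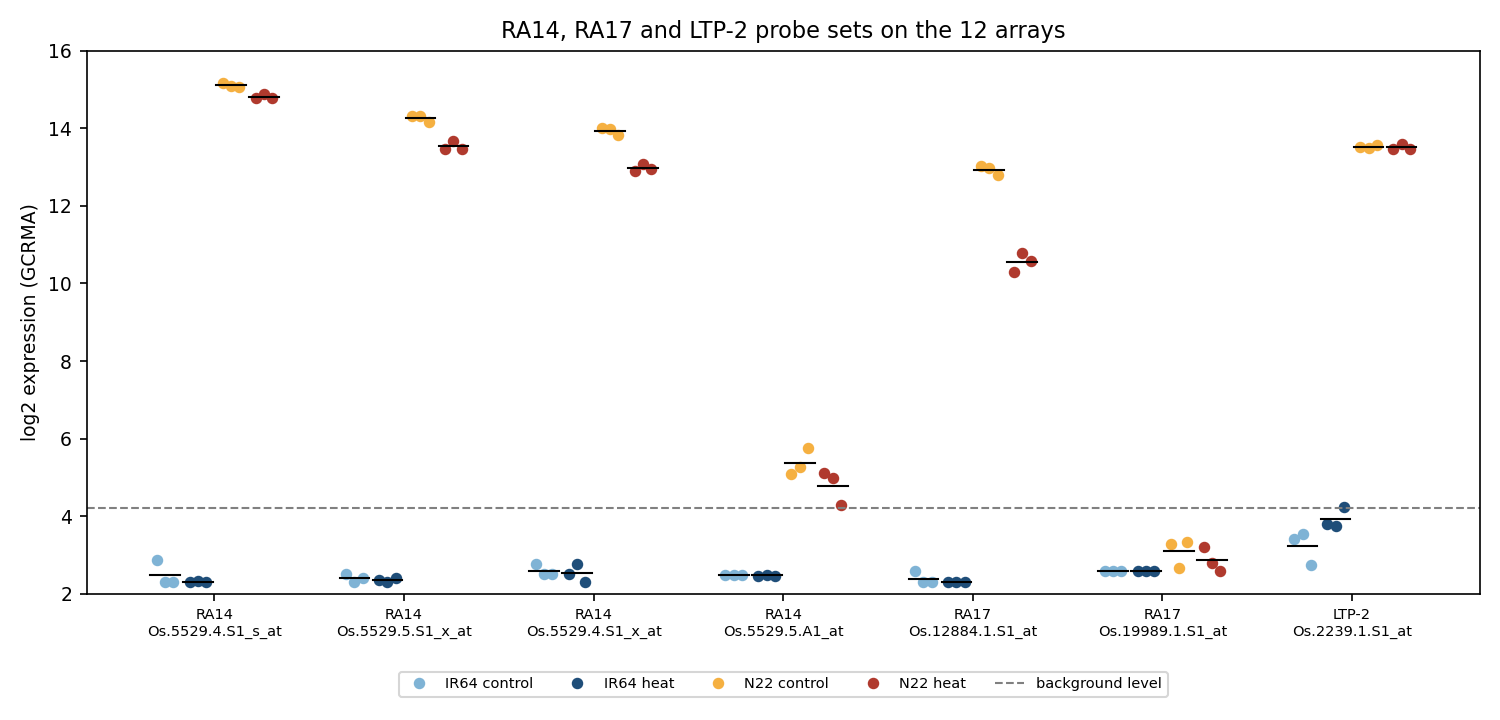
Log2 expression of the 7 probe sets on each of the 12 arrays, 1 point per array, coloured by group, with the group mean as a black bar and the background level of 4.20 as a dashed line. RA14 and LTP-2 lie between 12.89 and 15.18 in N22 on their 4 brightest probe sets. The bright RA17 probe set has means of 12.93 in N22 control and 10.55 in N22 heat, and the dim one lies at background. IR64 points lie at or near background.

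Being measured in N22 and not in IR64 was uncommon on the array. Of the 57258 probe sets, 894 (1.56%) lay above background on all 6 N22 arrays and at or under it on all 6 IR64 arrays, and 5 of the 7 member probe sets were among them. The exceptions were the dim RA17 probe set and LTP-2, which read 4.24 on 1 IR64 heat array. The genes were picked for this pattern, so the count describes the choice. Within those 894 probe sets the median heat difference in N22 was -0.35, with quartiles of -0.91 and 0.16, and 605 had a negative difference. RA17 lay near the bottom of this range, with 15 of the 894 lower, while 474 were lower than RA14 on its brightest probe set. LTP-2 is not among the 894, and 601 of them had a lower value than its -0.02. Heat and control arrays of N22 did not overlap for 4 of the 7 member probe sets, and did not overlap for 58.0% of all kept probe sets, from which nothing is read.

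The genes on either side of RA17 and RA14 were read next, chosen by position alone. LOC4342721, before RA17, lay at background in IR64 on both of its probe sets and was measured on both in N22. The brighter had a mean of 14.30 ± 0.07 without heat and 14.19 ± 0.03 with heat (SD, n = 3), and the dimmer 8.67 ± 0.08 and 7.91 ± 0.17, in the same order. Neither probe set was called for heat in N22 (limma adjusted p = 0.407 and 0.0591). LOC4342720 comes before a pseudogene that separates it from LOC4342721, and its probe set is shared, so other transcripts may add to it. LOC4342720 read 11.69 ± 0.11 in N22 control and 10.51 ± 0.19 in N22 heat, with IR64 at background. In the limma test over all kept probe sets it was higher in N22 control than in IR64 control (adjusted p = 6.98e-11) and fell by 1.18 ± 0.18 with heat in N22 (SE, adjusted p = 0.000295, 51.7% of all probe sets called in that comparison). Of all 29803 kept probe sets, 7121 were called higher and 8290 lower with heat in N22, a split that became 5564 and 13429 with each array centred on its median. The files give neither of these genes a name.

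RA5 (LOC4342727), whose symbol belongs to the same series of seed allergens, is on the far side of RA14 and had the same order of groups. Its shared probe set read 14.18 to 14.26 in N22 control, 13.32 to 13.53 in N22 heat and 2.62 to 3.05 over the 6 IR64 arrays. With heat in N22, RA5 fell by 0.78 ± 0.10 (SE, limma adjusted p = 0.000115), a value inside the range of the 4 RA14 probe sets. In control it was at least 1045-fold above IR64 (adjusted p = 9.5e-14, 70.6% of all probe sets called in that comparison). The heat effects of RA5 in the cultivars differed by -1.05 (adjusted p = 0.000155, 55.4% called), with IR64 at background in both groups.

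The genes outside and between these did not share the pattern. LOC4342718 read 9.06 ± 0.13 in IR64 control and 9.24 ± 0.20 in N22 control (SD, n = 3; limma adjusted p = 0.242). LOC4342726, between RA14 and RA5, was measured in all 4 groups, at 7.69 ± 0.07 in IR64 control and 8.39 ± 0.13 in N22 control. With heat in N22 it fell by 1.19 ± 0.15 (SE, adjusted p = 6.89e-05). LOC4342717 was at background in N22 on both probe sets. RA16 and CHS2, which are also in this stretch, have no probe set in the annotation used and were not analysed here.

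**Figure D2:**
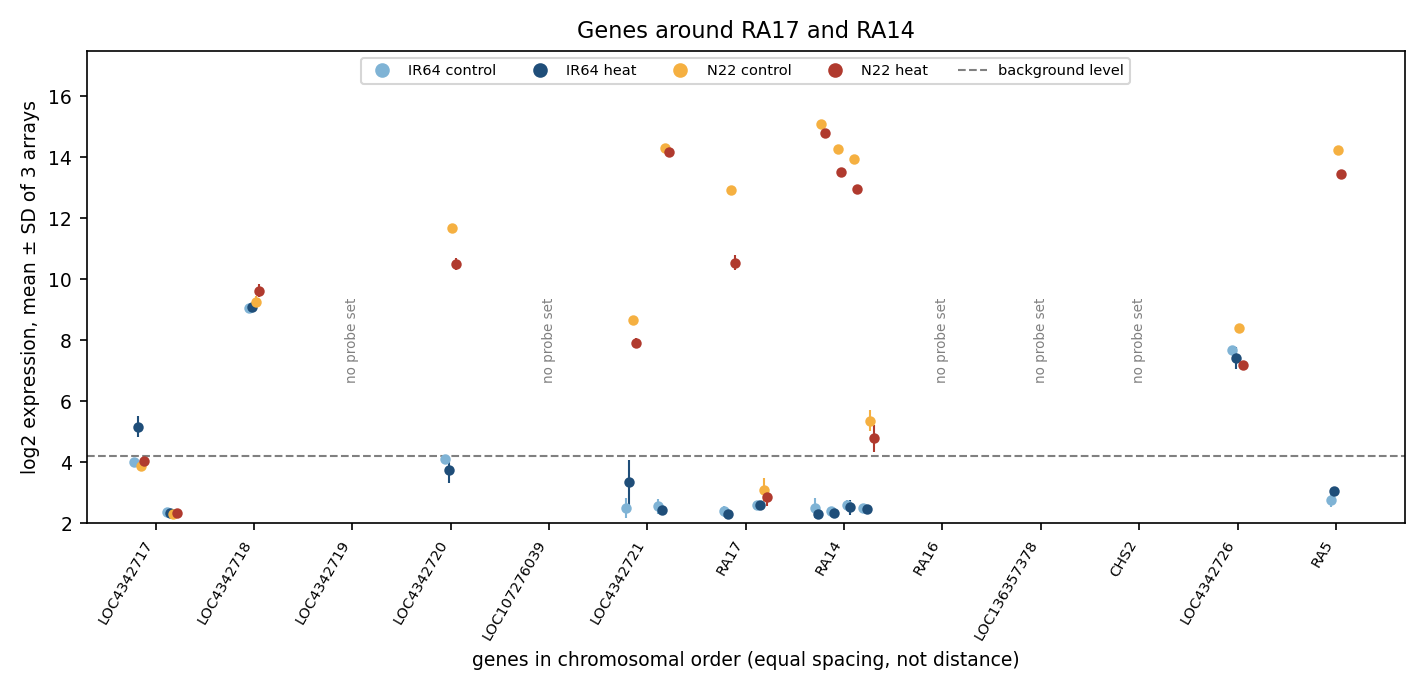
Mean log2 expression with SD of 3 arrays for each probe set of the genes around RA17 and RA14, in chromosomal order and equally spaced, with the background level dashed. LOC4342720, LOC4342721, RA17, RA14 and RA5 are measured in N22 and at background in IR64, except for the dim RA17 probe set, at background throughout. LOC4342718 and LOC4342726 are measured in both cultivars.

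Other genes of the same protein classes were read next, with RA14, RA17 and LTP-2 left out. Of 6 further named lipid transfer genes on the array, 5 were kept, and none had the N22 pattern of LTP-2: 4 were measured in all groups and 2 were at background in all. LTPL1 read 10.69 to 10.76 in N22 control and 11.50 to 11.62 in N22 heat and rose by 0.83 ± 0.09 (SE, limma adjusted p = 1.6e-05). LTP2-B (shared probe set) rose in N22 by 0.81 ± 0.19 (adjusted p = 0.00383). LTP110-A fell by 0.73 ± 0.09 in N22 (adjusted p = 5.38e-05) and fell by 1.56 ± 0.09 in IR64 (adjusted p = 1.79e-07). LTP (LOC4351318, shared probe set) rose in IR64 by 0.75 ± 0.08 (adjusted p = 2.59e-05) and had -0.18 ± 0.08 in N22 (adjusted p = 0.0932), which was called with arrays centred (-0.38, adjusted p = 0.00918). Heat in N22 thus gave 2 rises, 1 fall and 2 not called among the 5, and heat in IR64 1 rise, 1 fall and 3 not called, beside 51.7% and 51.8% of all probe sets called. By direction, 23.9% of all probe sets were called higher and 27.8% lower with heat in N22, and 24.2% and 27.5% in IR64. The median differences were 0.17 and -0.13, beside -0.01 and 0.00 over all probe sets. Both medians are the values of C4, a gene at background on all 12 arrays, so they give no measured change.

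Most listed seed storage protein genes had the cultivar pattern of RA14 and RA17, and the direction of their heat calls in N22 depended on scaling. The glutelins are the main storage proteins of rice endosperm. GLUA-3 read 14.80 to 14.88 in N22 control, 15.10 to 15.28 in N22 heat and at most 2.65 in IR64, and it rose in N22 by 0.36 ± 0.07 (SE, limma adjusted p = 0.00152). GLUB-5 rose by 0.57 ± 0.09 (adjusted p = 0.000284) and GluC by 0.20 ± 0.04 (adjusted p = 0.00295). With each array centred on its median, GLUA-3 and GluC were no longer called (0.17 and 0.01, adjusted p = 0.0695 and 0.888). The prolamin gene PROLM25 (shared probe set) read 14.31 to 14.44 in N22 control and 14.23 to 14.37 in N22 heat (-0.08 ± 0.05, adjusted p = 0.269).

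Of 7 kept storage genes, 3 rose with heat in N22, 0 fell and 4 were not called, with a median of 0.13. Over all probe sets, 23.9% were called higher and 27.8% lower with heat in N22. With each array centred on its median, 1 rose (GLUB-5), 2 fell and 4 were not called, the falls being PROLM25 (-0.27, adjusted p = 0.00752) and GLB1 (-0.24, adjusted p = 0.00622). Under that centring, 5564 of all 29803 kept probe sets were called higher and 13429 lower. In control, 6 were higher in N22 than in IR64 and 1 was lower, beside 35.1% and 35.6% of all probe sets. The lower one was GLB1 (LOC4337720), which read 10.33 to 10.40 in IR64 control and 8.59 to 8.64 in N22 control. It was listed by its name alone and may not encode a globulin. In IR64, 3 storage genes were called lower in heat, beside 27.5% of all probe sets. Of these, GluC and GLUA-2 were at background in both IR64 groups, so only GLB1 gives a measured change (it fell by 0.53 ± 0.07, limma adjusted p = 6.64e-05).

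Starch synthesis genes of the endosperm were higher in N22 too, and 3 of 5 fell with heat in N22, beside 27.8% of all probe sets called lower. AGPS2, a small subunit of the enzyme that makes ADP-glucose, fell from a mean of 14.35 ± 0.07 in N22 control to 13.35 ± 0.08 in N22 heat (SD, n = 3, limma adjusted p = 2.8e-06). The branching enzyme gene Sbe1 (shared probe set) fell by 0.91 ± 0.12 (adjusted p = 9.4e-05) and the starch synthase gene ALK fell by 1.10 ± 0.16 (adjusted p = 0.000189). SSI, another starch synthase gene, had -0.07 ± 0.13 (adjusted p = 0.753). GBSS1, also written GBSS-I, encodes the granule-bound starch synthase, and its probe sets disagreed. The brightest had -0.13 (adjusted p = 0.96) and the next brightest -0.36 (adjusted p = 0.478), both shared and neither called. The 3 dimmer ones had -1.77, -1.32 and -1.05 (adjusted p = 4.84e-07, 0.000128 and 0.00259). With the mean of a gene's kept probe sets, GBSS1 was called (-0.93, adjusted p = 0.00164) and 4 of the 5 fell. Unlike the allergens, SSI, Sbe1 and AGPS2 were measured in IR64 as well, at 9.61 to 9.64, 10.88 to 10.95 and 9.60 to 9.66 in IR64 control. All 5 were called higher in N22 control, beside 35.1% of all probe sets, AGPS2 by 4.72 ± 0.08 (adjusted p = 7.3e-12). In IR64, 4 of the 5 were called lower with heat, beside 27.5% of all probe sets, 0 higher and GBSS1, which ran from 5.56 to 8.41 in IR64 control, was not called (median -0.58). ALK was at background in both IR64 groups, so SSI, Sbe1 and AGPS2 give the measured values there, -0.94 ± 0.13, -0.58 ± 0.12 and -0.42 ± 0.08 (limma adjusted p = 0.000125, 0.00205 and 0.00147). The Sbe1 call in IR64 was lost with the mean of its probe sets (-0.21, adjusted p = 0.0898).

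Genes of the late embryogenesis list, which holds protein genes of maturing seed, fell with heat in N22 where they were above background in N22 control. Of 8 kept, 6 fell in N22, 0 rose and 2 were not called, with a median of -0.86, beside 27.8% of all probe sets called lower and 23.9% higher. EM read 12.03 to 12.14 in N22 control and 11.18 to 11.38 in N22 heat and fell by 0.81 ± 0.10 (SE, limma adjusted p = 8.55e-05). The dehydrin gene RAB21 (shared probe set) fell by 1.73 ± 0.17 (adjusted p = 9.53e-06), and RAB16B, another dehydrin gene, fell by 1.63 ± 0.15 (adjusted p = 5.8e-06). In IR64, RAB21 and LEA19 (shared probe set) instead rose, by 1.50 ± 0.17 and 1.99 ± 0.18 (adjusted p = 2.64e-05 and 4.76e-06; LEA19 was at background in IR64 control), and rab25 was called there with both groups at background. No oleosin gene was matched by the names listed.

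Among 12 kept genes listed as regulators of seed expression, VP1 and nf-yb1 had the cultivar pattern of the allergens. The list was matched by name, and its HAP3 entries are NF-Y genes whose part in seeds was not checked. VP1 is also counted in the late embryogenesis list. VP1, a seed maturation factor, read 9.92 to 10.11 in N22 control and was at background in IR64, and with heat in N22 it fell by 1.02 ± 0.16 (SE, limma adjusted p = 0.000301). The endosperm gene nf-yb1, of the NF-Y factors, read 9.83 to 9.99 in N22 control, was at background in IR64 and fell by 0.84 ± 0.11 (adjusted p = 6.56e-05). Of the 12, 4 rose, 6 fell and 2 were not called with heat in N22 (median -0.13), and 4 rose, 4 fell and 4 were not called in IR64 (median -0.04). Over all probe sets, 23.9% were called higher and 27.8% lower in N22, and 24.2% and 27.5% in IR64. HAP3I (shared probe set) rose most in N22 among them, by 3.65 ± 0.19 from background (adjusted p = 1.04e-07), and RSR1 (shared probe set), a factor that holds back starch synthesis genes, by 1.26 ± 0.11 (adjusted p = 5.94e-06).

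**Figure D3:**
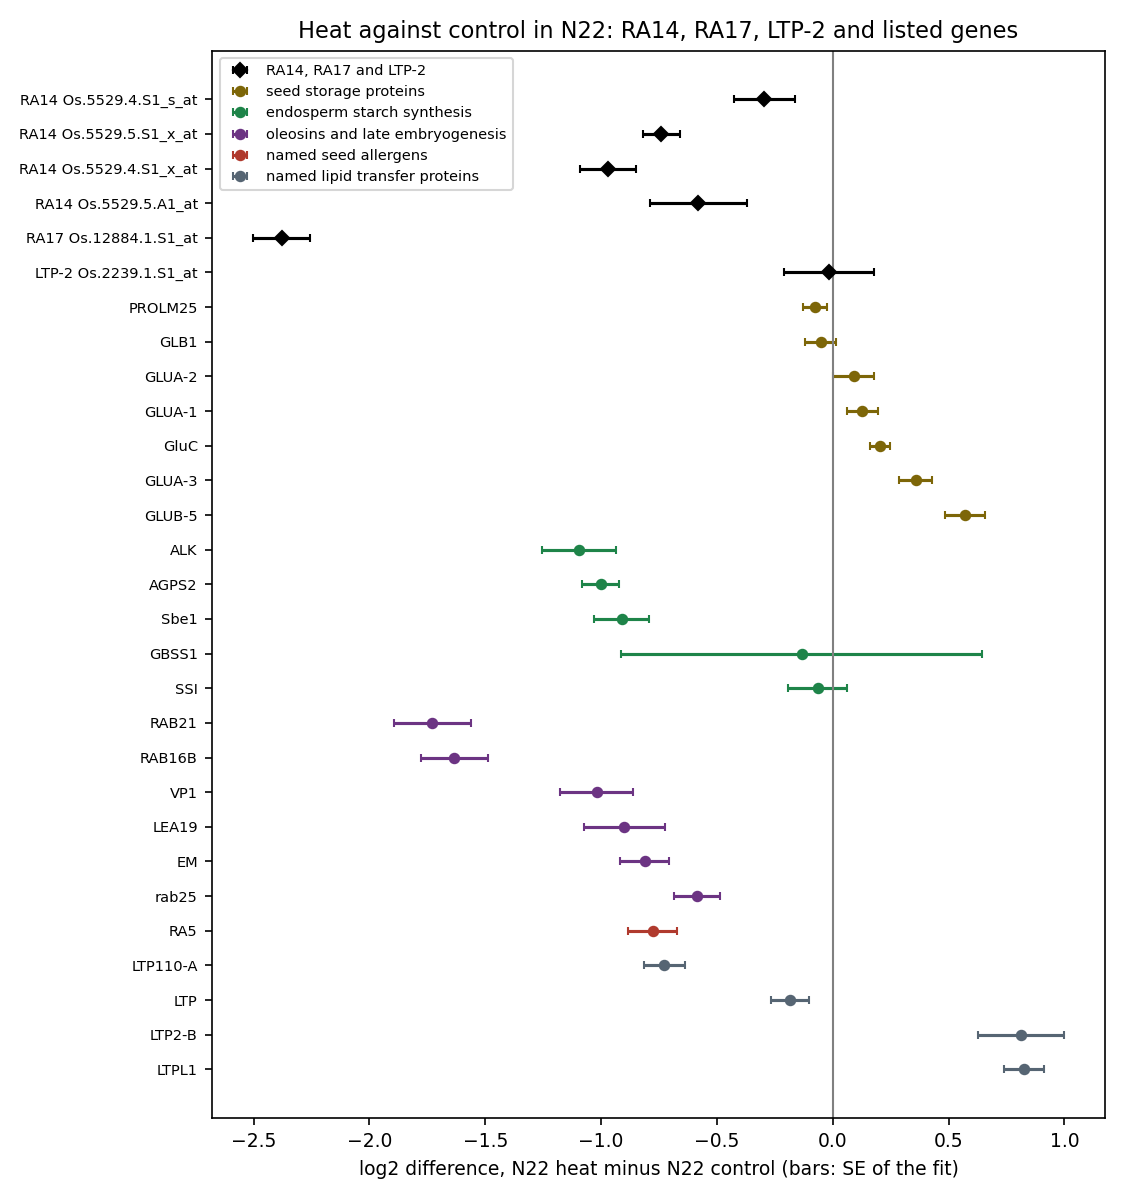
Log2 difference between N22 heat and N22 control with the SE of the fit, for the 6 measured probe sets of RA14, RA17 and LTP-2 and for listed genes measured in N22. RA17 is farthest to the left at -2.38, LTP-2 is at -0.02, the storage protein genes lie between -0.08 and 0.57 (2 of them are called lower with arrays centred), and the late embryogenesis genes between -1.73 and -0.59.

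The named genes closest to each member were found by the root mean square difference of log2 values over the 12 arrays, each probe set first centred on its own mean, among 2274 genes. A small value means that the levels rise and fall by like amounts from array to array, the gap between the cultivars included. Closest to RA14 were GLUA-3 (0.25), the prolamin gene PROLM25 (0.32, shared), GluC (0.36), GLUA-1 (0.44, shared) and TIP3 (0.45, shared), an aquaporin gene of storage vacuoles. In that order they have N22 heat differences of 0.36, -0.08, 0.20, 0.13 and 0.07, where RA14 has -0.30 on its brightest probe set. Only that RA14 probe set was compared here. The others had larger N22 heat differences, of -0.74, -0.97 and -0.58, and the genes closest to them were not looked for. Closest to RA17 were ALK (0.51), GBSS-I (0.54, shared), EM (0.75), R1C-Prx (0.90), a peroxiredoxin gene, and RA5 (0.96, shared). Their N22 heat differences were, in that order, -1.10, -1.77, -0.81, -0.94 and -0.78, where RA17 has -2.38. Closest to LTP-2 were RA5 (0.62, shared), GBSS-I (0.69), ALK (0.72), PROLM25 (0.79, shared) and EM (0.86). On the probe sets compared, these had N22 heat differences of -0.78, -1.32, -1.10, -0.13 and -0.81, where LTP-2 has -0.02. A small value thus did not mean a like heat difference in N22. Between the members it was 1.75 for RA14 and RA17, 1.37 for RA14 and LTP-2 and 0.95 for RA17 and LTP-2.

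Markers of tissues and measures of RNA quality also differed between groups, not all in the order of the members, and their part in these results was not tested. Of 8 storage genes, 7 were above background on all 3 arrays in each N22 group, against 1 in each IR64 group. The mean log2 level of the list was 12.13 to 12.18 in N22 control and 12.27 to 12.33 in N22 heat, and 3.57 to 3.63 and 3.34 to 3.43 in IR64. Whether N22 panicles held more cells of a type or more of this RNA per cell cannot be told apart in whole panicles. Of 8 green tissue genes, 7 were kept and all 7 were lower in N22 than in IR64 without heat and rose with heat in N22 (limma, medians of -3.95 and 2.83), beside 35.6% and 23.9% of all probe sets called in those directions. Their mean level was 11.53 to 11.56 in IR64 control, 8.27 to 8.28 in N22 control and 10.53 to 10.66 in N22 heat.

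Of 12 tapetum markers, 10 were at or under background in each IR64 group and 9 in each N22 group, with TDR, RTS and RAFTIN1 there on all 12 arrays. GAMYB (shared probe set) and MTR1 were above background in every group, with means of 8.72 and 9.44 in N22 control and 6.94 and 8.02 in IR64 control. With heat in N22 they had -0.78 ± 0.09 and -1.18 ± 0.07 (SE, limma adjusted p = 3.83e-05 and 2.62e-07). Of 6 kept tapetum genes, 2 were called lower there and 0 higher, beside 27.8% and 23.9% of all probe sets. The list's mean level was 3.33 to 3.43 over the IR64 arrays and 3.60 to 3.84 over the N22 arrays. EXPB10, the single late pollen gene matched, lay at 6.44 to 6.91 in IR64 control, at background in IR64 heat and N22 control, and at 5.96 to 6.45 in N22 heat. The 3' minus 5' difference of the GAPDH control probe sets, a measure of RNA length, was 4.79 ± 0.18 in IR64 control, 7.93 ± 0.16 in IR64 heat, 8.59 ± 0.14 in N22 control and, with heat, 8.81 ± 0.17 in N22 (SD, n = 3). The ubiquitin control probe sets gave another order, at 1.45 ± 0.03 in IR64 control, 2.15 ± 0.01 in IR64 heat, 2.21 ± 0.07 in N22 control and 2.04 ± 0.05 in N22 heat.

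**Figure D4:**
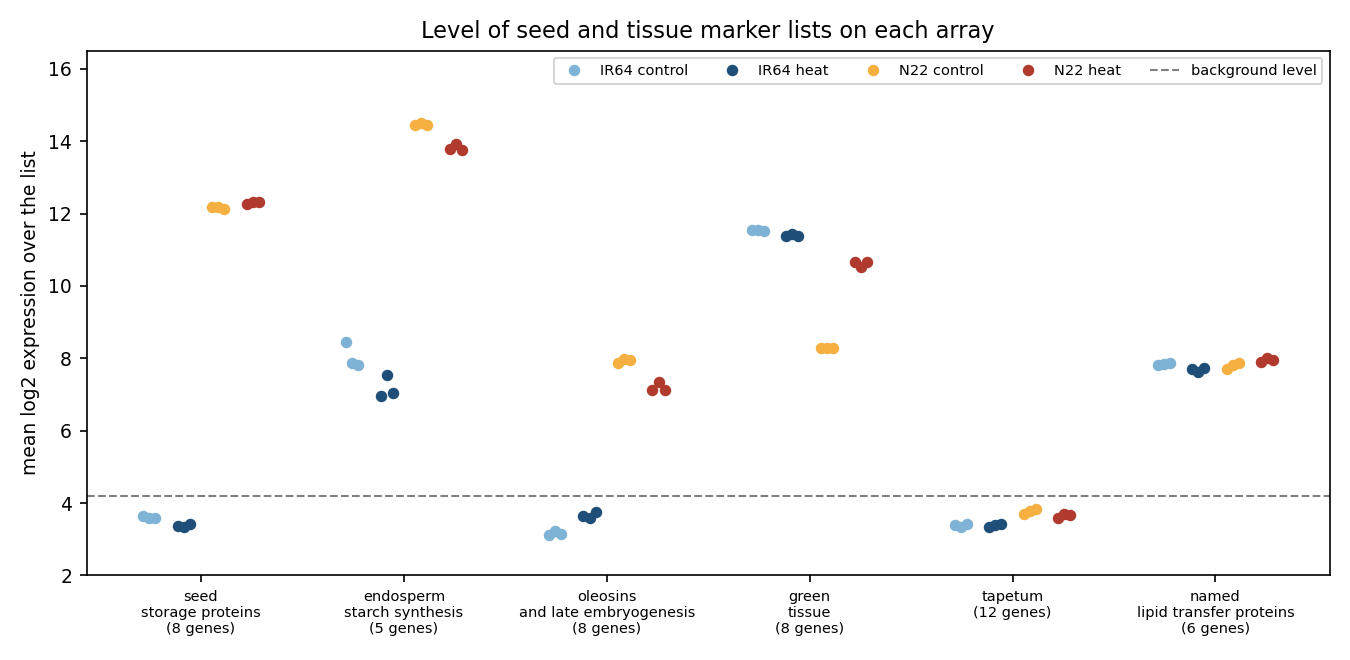
Mean log2 expression over each gene list on each of the 12 arrays, coloured by group, with the background level dashed and the brightest probe set taken per gene. The storage, starch and late embryogenesis lists are higher in N22, the green tissue list is lowest in N22 control, the tapetum list lies under background in every group, and the lipid transfer list lies between 7.62 and 8.00.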

How the data were processed

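Per the submitters' processing notes, the authors deposited log2 values normalized with GCRMA, 1 column per array; no source used here states its version. Each array's group came from its labels. A probe set was kept where it exceeded the table median (2.35) on at least 3 arrays, which left 29803. limma 3.58.1 in R 4.3.3 was fitted to the 4 group means on all 12 arrays with eBayes, Benjamini-Hochberg adjustment over the kept probe sets and a threshold of 0.05, after the fit was tested on simulated data. Genes in lists are represented by the probe set with the brightest mean. Up to 6 genes per list, called for heat in either cultivar and with the smallest adjusted p, are named, and 5 by likeness per gene. Neighbours were chosen by position. The members, lists and background level were chosen with earlier results of these data known. Of the list matches, 7 were dropped because their other names give another kind of gene. Lists by protein sequence were not analysed here. "At least" folds raise the dim group's values to the background level. Of all values, 43.1% are at the floor of the table, where low levels have no order. The number of arrays limits precision. Alternatives were scaling, filter, moderation, probe set choice, leaving out arrays and a replicate block.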

Additional observations from a re-analysis of the deposited data

Results flagged for a closer look

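The heat effect differed between the cultivars, by limma's test of the difference (N22 minus IR64, log2), for 23 listed genes and 4 neighbouring probe sets, where 55.4% of all kept probe sets were called. Among genes of the same classes as RA14, RA17 and LTP-2, it was 0.83 for LTP110-A, 0.69 for LTPL1, -0.94 for LTP, 0.99 for LTP2-B and -1.05 for RA5. For storage genes it was 1.08 for GLUA-2, 0.48 for GLB1, 0.70 for GLUB-5, 0.49 for GLUA-3 and 0.38 for GluC. For starch genes it was -0.59 for AGPS2, 0.87 for SSI and -0.66 for ALK. In the late embryogenesis list the values were -2.89 for LEA19, -1.68 for RAB16B, -3.23 for RAB21, -0.91 for EM, -0.95 for VP1 and -0.99 for rab25. Regulators gave 2.06 for HAP3I, 0.41 for HAP3 (LOC9268285), -0.84 for nf-yb1 and 0.81 for MADS29. Neighbours of RA17 and RA14 gave -1.01 for LOC4342717, -0.83 for LOC4342720, -1.61 for the dimmer probe set of LOC4342721 and -0.91 for LOC4342726. RA5, the glutelins, ALK, RAB16B, EM, VP1, rab25, nf-yb1, LOC4342720 and LOC4342721 were at background in both IR64 groups, so for them the IR64 effect is no measured change.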

How the results depend on the processing

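No called heat effect of a named list gene reversed direction under the alternatives run. Neighbours other than RA5 and the differences of heat effects per gene were not among the values recomputed. With each array centred on its median, the N22 heat difference was -0.49 for RA14, -2.57 for RA17 and -0.21 for LTP-2, and quantile normalization gave -0.23 for RA14. Centring moved the median of kept probe sets from -0.01 to -0.20 for heat in N22 and from 0.00 to 0.11 for heat in IR64. Called probe sets for heat in IR64 went from 7218 higher and 8210 lower to 9125 and 6941 (8894 and 7263 after quantile normalization). For N22 over IR64 in control, centring gave 14528 higher and 9124 lower against 10450 and 10598, and for the difference of heat effects 6599 and 13805 against 8744 and 7765. On its other probe sets RA14 gave -0.74, -0.97 and -0.58 for heat in N22, 10.07, 9.74 and 1.16 for N22 over IR64 in control and 9.33, 8.77 and 0.58 in heat. With values raised to background, N22 over IR64 in control was 10.91 for RA14, 8.73 for RA17 and 9.33 for LTP-2. Centred, these became 11.03, 8.85 and 9.44, and as deposited 12.62, 10.54 and 10.30. In heat they were 10.61, 6.35 and 9.30, as deposited 12.51, 8.26 and 9.58, with 10.54 (RA14) and 9.23 (LTP-2) centred and 10.66 and 9.23 after quantile normalization. RA5, at background in IR64, was called for heat there (1 against 0) under centring, quantile normalization, the mean of kept probe sets and without IR64 control replicate 1. The causes of these moves were not tested.

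Leaving out 1 array at a time, the N22 heat difference ran from -0.33 to -0.26 for RA14, -2.49 to -2.25 for RA17 and -0.06 to 0.01, on either side of 0, for LTP-2. Of 684 recomputed values of named genes, 668 kept direction and call and 16 lost the call, 12 of them ALK in IR64, where it is at background. With the replicate number as a block, 15263 probe sets were called for heat in IR64 and 15144 in N22, against 15428 and 15411. The numbers do not pair the samples: over 18 pairs the correlation of deviations ran from -0.05 to 0.10. Values near background carry no order, which limits statements on RA14, RA17 and LTP-2 in IR64.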
